A study of Mus musculus with 12 samples.

Results

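Interferon response and antigen presentation genes were described in mouse keratinocytes that carried an adenovirus for deltaNp63alpha, the p63 isoform without the N-terminal transactivation domain. The genes were taken from a list of 50 symbols, and a gene counted as measured where the platform annotation gave a probe that symbol and no other. Of the 50 genes 26 were measured, by 30 probes, among 6778 named genes in all, and 24 were not measured here: Bst2, Dhx58, Gbp3, H2-D1, H2-K1, Ifi27, Ifi35, Ifi44, Ifi47, Ifih1, Ifitm1, Ifitm2, Ifitm3, Isg20, Mx1, Mx2, Oas1g, Oas2, Oas3, Oasl1, Psmb9, Stat2, Tapbp and Xaf1. Tapbp, Psmb9 and Ifi47 were annotated only to probes shared with another gene, which were not used.

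Both RNAs of every array came from primary skin keratinocytes of C57Bl/6NCr mice, and both carried an adenovirus, encoding either deltaNp63alpha or, in the control RNA, beta-galactosidase. Cells were harvested 41 h after transduction, having spent 24 h at 0.05 mM calcium (low calcium) or 0.12 mM calcium (high calcium). The 12 spotted cDNA arrays formed 3 repeats per calcium level, each hybridised once with deltaNp63alpha RNA in Cy5 (forward) and once with it in Cy3 (reversed). No array held RNA of untransduced cells, so a response to the virus that both RNAs share does not appear in these ratios. The sources used here state no viral dose. Arrays are described in the labels as technical repeats, and the spread behind the p-values may be technical.

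Type I interferons act through a cell surface receptor, and their signal reaches the interferon-stimulated response element in the promoters of antiviral genes. Interferon gamma has a receptor of its own, is linked to the gamma-activated sequence and induces, among others, the GTPases of the Irg and Gbp families and the machinery of class I antigen presentation. RIG-I and MDA5, encoded by Ddx58 and Ifih1, sense foreign RNA, and keratinocytes are a barrier cell type that can start this response. In class I presentation the immunoproteasome cuts proteins, TAP1 and TAP2 carry the peptides into the endoplasmic reticulum, and beta-2-microglobulin holds the heavy chain that displays them.

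The promoters of the genes that the results turn on are shown first, since the response element is the sequence through which the pathway acts. RefSeq promoters (GRCm38.p6, the 250 bases before each start) were on hand for 23 of the 26 genes, and the element was searched on both strands as GAAA and GAAA separated by 2 bases. It was found in 10 of the 23 genes, against 2.98% of all 32851 promoters. The gamma-activated sequence TTCNNNGAA, searched on both strands, was found in 7 of the 23, against 7.02% of all promoters. A match is a description of the letters and not a site of binding. The following stretches run 5′ to 3′ on the strand of the gene, with the matches in capitals (TTTC marks the opposite strand). They lie at chr4:156200855-156200916 (minus strand) for Isg15, chr11:58199502-58199551 (plus) for Igtp, chr19:34640765-34640833 (plus) for Ifit1, chr19:34583353-34583436 (plus) for Ifit3 and chr5:92349073-92349122 (minus) for Cxcl10.
Isg15: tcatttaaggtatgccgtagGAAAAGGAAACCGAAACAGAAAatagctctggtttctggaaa
Igtp: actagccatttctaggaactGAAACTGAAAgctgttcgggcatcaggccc
Ifit1: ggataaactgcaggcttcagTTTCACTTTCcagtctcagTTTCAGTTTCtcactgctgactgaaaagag
Ifit3: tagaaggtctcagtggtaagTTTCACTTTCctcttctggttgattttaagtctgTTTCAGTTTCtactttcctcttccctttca
Cxcl10: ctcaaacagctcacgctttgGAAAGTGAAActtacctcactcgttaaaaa
Isg15 holds 3 overlapping matches and has the highest fitted ratio in high calcium, while Ifit3 and Cxcl10 also hold the element and had high calcium values below 0. No match was found in the window of Tap1. These genes are set beside each other for their letters, and the values by match are given after the results.

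The unit throughout is the log2 ratio of a dye-swap pair, the forward value minus the reversed value, divided by 2, after each array was centred on its median. A ratio above 0 stands for more signal in the RNA labelled deltaNp63alpha, provided that the deposited value is Cy5 over Cy3. That order is not settled. Cy5 over Cy3 is the usual order for such arrays, and under it Serpinb5, which encodes the maspin that the series title names as negatively regulated, lay below 0 in all 5 of its pairs (-1.02 to -0.50), with a high calcium ratio of -0.89 (limma, adjusted p = 0.0388) against 0.02 with the deposited signs kept. The labels, however, give the deltaNp63alpha RNA as channel 2 on forward and reversed arrays alike, and if channel 2 was divided by channel 1 the reversed arrays need no change of sign. The Trp63 probe, meant as the check of the label, had pair values of -0.78 and 0.45 in low calcium and -0.59 and -0.51 in high calcium. It did not pass the test at either level (-0.16 ± 0.25 SE, adjusted p = 0.919; -0.55 ± 0.25 SE, adjusted p = 0.446; limma, n = 2 pairs each). A probe that detects the introduced RNA should lie above 0, and whether the Trp63 probe detects it is not known. Over all rows the deposited sign flipped with the dye in 36.6% of pair values. Signed statements therefore speak of the RNA labelled deltaNp63alpha.

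Depth differed between arrays: 3366 to 9096 of 9558 probes had a value. High calcium repeat 3 and low calcium repeats 2 and 3, whose experiment numbers form a later range than those of the other 3 repeats, had 6 to 19 of the 26 genes on an array, against 23 to 26 in the others. Their values also spread more widely, with an SD over probes of 0.763 to 1.24 against 0.504 to 0.711. Over all genes and features the forward and the turned reversed array of a pair correlated between -0.12 and -0.71 (Pearson's r, 2421 to 8214 rows), so a part of each value kept its sign when the dyes were swapped. Testing a gene at one level required 2 or more pairs with a value there, with Benjamini-Hochberg adjustment over all rows tested. All rows with a pair value were in 1 limma fit, and 165 of the 8875 rows had none. A gene was tested within that fit. It was called where the adjusted p was under 0.05.

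In high calcium 1 of 21 tested genes was called, Isg15, which was higher in the RNA labelled deltaNp63alpha, where 1.39% of all rows tested were called in either direction. In low calcium 0 of 11 tested genes were called, against 0.409% of all rows, and 3 had an unadjusted p under 0.05. The high calcium share of 4.76% rests on 1 gene. The high calcium ratios lay above 0 in 15 of 21 genes (71.4%), against 50.6% of all rows, with a median of 0.14 against 0.01. In low calcium 6 of 11 lay above 0 (54.5%, against 53.5% of all rows), with a median of 0.03 against 0.02. Tap1, Isg15 and Igtp had the largest fitted ratios, and Ifit2 and Cxcl10 were below 0 in each of their pairs.

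**Figure D1:**
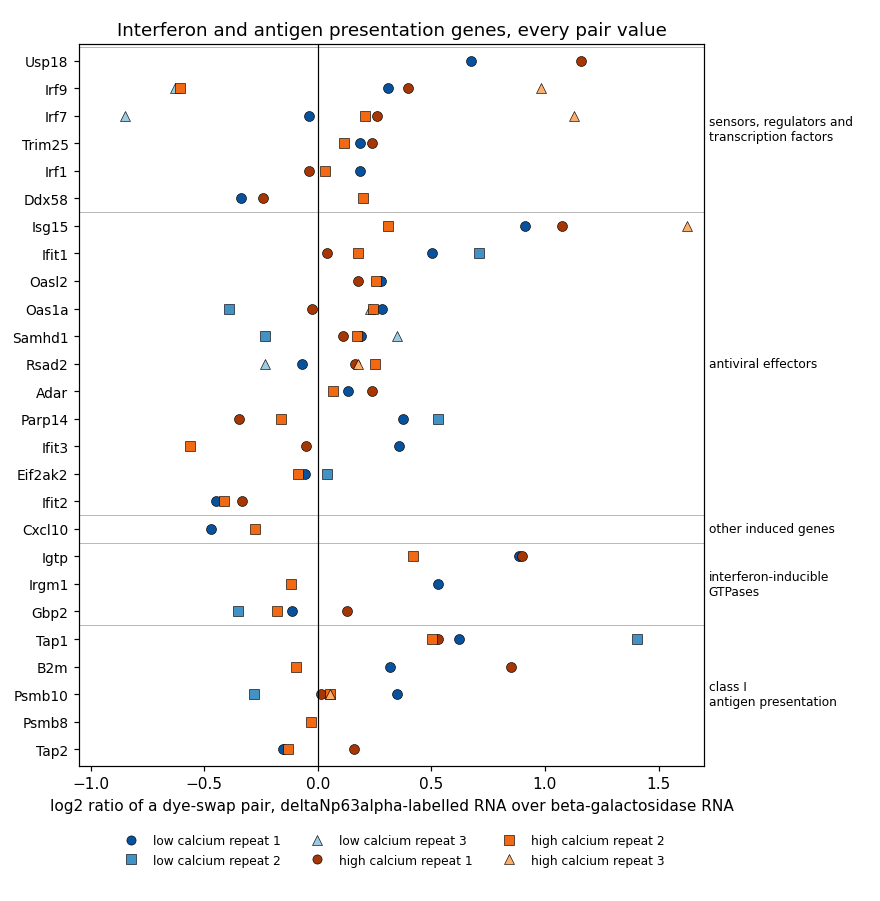
Pair values of the 26 genes by role; each point is the log2 ratio of 1 dye-swap pair (x axis), coloured by calcium level and shaped by repeat. Isg15, Tap1, Igtp, Usp18, Ifit1, Oasl2, Trim25 and Adar lie above 0 in all their pairs, with Isg15 reaching 1.62 in high calcium repeat 3. Most other genes scatter around 0.

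Among the antiviral effectors Isg15, a ubiquitin-like protein that is joined to other proteins and is among the most strongly interferon-induced genes, was called in high calcium. Its forward and turned reversed values were 0.94 and 1.21 in high calcium repeat 1, -0.14 and 0.76 in repeat 2, and 1.82 and 1.42 in repeat 3. In low calcium repeat 1, its one measured pair there, they were 0.55 and 1.28, which gave a pair value of 0.91. The pair values in high calcium were 1.07, 0.31 and 1.62, all above 0, with repeat 2 the lowest. The fitted ratio was 1.00 ± 0.22 (moderated SE of limma, n = 3), a fold of 2.00 (adjusted p = 0.0468). That SE borrows spread from other rows, and the SD of the 3 pair values themselves was 0.66. The call was close to the threshold and rested on repeat 3, the one high calcium pair of the later experiment numbers: without it the ratio was 0.69 (adjusted p = 0.175). It was also lost in 8 other alternatives, with adjusted p from 0.0555 to 0.709. With the deposited signs kept the ratio was -0.13. The Isg15 probe was annotated with 2 gene IDs of the same symbol, and near-identical copies cannot be told apart.

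The Ifit genes, whose proteins bind foreign RNA and block its translation, did not move together. Ifit1 had pair values of 0.50 and 0.71 in low calcium and 0.04 and 0.18 in high calcium, so all 4 lay above 0 and both low values exceeded both high values. Its fitted ratio was 0.61 ± 0.18 in low calcium (adjusted p = 0.251) and 0.11 ± 0.18 in high calcium (adjusted p = 0.859). The deposited sign of Ifit1 flipped with the dye in 2 of its 4 pairs. Its forward and turned reversed arrays were opposed in low calcium repeat 2 (-0.55 and 1.97) and high calcium repeat 1 (-0.34 and 0.42). With the deposited signs kept its ratios were -0.57 in low and -0.22 in high calcium. Ifit2 lay below 0 in its 3 pairs, at -0.45 in low calcium and -0.33 and -0.41 in high calcium. Its forward arrays ranged from -1.83 to -0.94 and its turned reversed arrays from 0.27 to 0.78, so the deposited value had the same sign on both arrays of every pair. With the deposited signs kept its high calcium ratio was -0.90 (adjusted p = 0.190). Ifit3 had 0.36 in low calcium and -0.05 and -0.56 in high calcium. Neither gene passed the test in high calcium (adjusted p = 0.521 for Ifit2, 0.667 for Ifit3).

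Oas1a and Oasl2 belong to the oligoadenylate synthetase family, which activates RNase L or acts beside RIG-I. Oas1a had pair values of 0.28, -0.39 and 0.23 in low calcium and -0.02 and 0.24 in high calcium, on both sides of 0. Oasl2 had 0.28 in low calcium and 0.18 and 0.26 in high calcium, all above 0 on both arrays of each pair, with a fitted high calcium ratio of 0.22 ± 0.19 (adjusted p = 0.759). Rsad2, which encodes viperin, had -0.07 and -0.23 in low calcium and 0.16, 0.25 and 0.18 in high calcium. The mean mixes 2 probes with values on different arrays, and the probe measured in more pairs had a low calcium ratio of 0.02 and a high calcium ratio of 0.10, neither called.

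Parp14, an ADP-ribosyltransferase, had 0.38 and 0.53 in low calcium and -0.35 and -0.16 in high calcium. These did not overlap, but its forward arrays lay below 0 and its turned reversed arrays above 0 throughout. Its low calcium ratio of 0.45 ± 0.18 was not called (adjusted p = 0.459), and it was -1.18 (adjusted p = 0.0396) with the deposited signs kept. Samhd1, a dNTP hydrolase that limits viral reverse transcription, had 0.19, -0.23 and 0.35 in low calcium and 0.11 and 0.17 in high calcium. Eif2ak2, the kinase PKR, lay between -0.09 and 0.04 in its 3 pairs. Adar, which edits adenosine in double-stranded RNA, had 0.13, 0.24 and 0.07. Of its 3 probes, the second had pair values of -0.58 and -0.24, and the other two lay above 0. None of these 4 genes was called.

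The regulators hold the sensors, their partners and the transcription factors of the pathway. Usp18, the protease that removes ISG15 and damps the receptor, had pair values of 0.67 in low calcium repeat 1 and 1.16 in high calcium repeat 1. With 1 pair per level it was not tested. On the array of high calcium repeat 2 that measured it, the forward one, the value was -0.49, and of its 3 forward arrays 1 lay above 0, at 0.89. Irf7, the factor that amplifies type I interferon, had -0.04 and -0.85 in low calcium and 0.26, 0.21 and 1.13 in high calcium. Its high calcium ratio was 0.53 ± 0.21 (adjusted p = 0.291).

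Irf9, a transcription factor of the type I interferon response, had 0.31 and -0.63 in low calcium and 0.40, -0.60 and 0.98 in high calcium. The deposited sign flipped with the dye in all 5 of its pairs, so once turned the arrays of a repeat point the same way while the repeats do not. Irf1, which drives class I genes, lay between -0.04 and 0.18 in its 3 pairs. Ddx58 had -0.34, -0.24 and 0.20, and Trim25, the ligase that activates RIG-I, had 0.19, 0.24 and 0.12. Of the regulators 0 of 2 tested in low calcium and 0 of 5 tested in high calcium were called. In high calcium 1 of the 5, Irf7, had an unadjusted p under 0.05.

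Cxcl10, a chemokine that draws T cells, was measured in 1 pair per level, at -0.47 in low calcium and -0.28 in high calcium, and was not tested. On its low calcium pair the forward array gave -2.02 and the turned reversed array 1.08, so the pair value is the small difference of large opposite values.

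Among the interferon-inducible GTPases, which take part in the defence against intracellular microbes, Igtp stood highest. Its pair values were 0.89 in low calcium and 0.90 and 0.42 in high calcium, and the high calcium ratio was 0.66 ± 0.20 (SE, n = 2; adjusted p = 0.181). In 2 of its 3 pairs both arrays lay above 0, and in high calcium repeat 2 the forward array gave -0.13. Irgm1 had 0.53 in low calcium and -0.12 in high calcium, in 1 pair each. Gbp2 had -0.11 and -0.35 in low calcium and 0.13 and -0.18 in high calcium, and its deposited sign did not flip with the dye in any of its 4 pairs. Neither tested gene of the group was called. Spotted cDNA probes can bind RNA of close relatives, and the values of the Ifit, Oas, Irg and Gbp families are uncertain in that respect.

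In class I presentation Tap1, 1 of the subunits of the peptide transporter, was above 0 in all 4 of its pairs. Its forward and turned reversed values were 0.92 and 0.33 in low calcium repeat 1, 0.28 and 2.54 in low calcium repeat 2, 0.50 and 0.56 in high calcium repeat 1, and 0.52 and 0.48 in high calcium repeat 2. All 8 values lay above 0, and the high value of low calcium repeat 2 came from its reversed array. The pair values were 0.62 and 1.41 in low calcium and 0.53 and 0.50 in high calcium, and the forward array of high calcium repeat 3, which had no partner, gave -0.42. The fitted ratio was 1.02 ± 0.21 in low calcium (n = 2; adjusted p = 0.0854), a fold of 2.02, and 0.51 ± 0.21 in high calcium (n = 2; adjusted p = 0.352). Tap1 was not called in low calcium, and it was called there without high calcium repeat 1 (adjusted p = 0.0197) or 2 (0.0140) and with the range of experiment numbers (0.0197) or the repeat number (0.0165) as a block. Its low calcium ratio stayed at 1.02 without high calcium repeat 1 or 2. In these fits and with the repeat number as a block, the fit gave every row the same spread (infinite prior degrees of freedom). In the other alternatives Tap1 was not called, with adjusted p from 0.0527 without high calcium repeat 3 to 0.695 with arrays on the same spread, where the ratio was 0.74. With the deposited signs kept its ratios were -0.42 and -0.00.

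Tap2, the partner of Tap1, did not share these values: it had -0.15 in low calcium and 0.16 and -0.13 in high calcium, with a fitted ratio of 0.02 ± 0.19 (adjusted p = 0.981). B2m, which encodes beta-2-microglobulin, had 0.32 in low calcium and 0.85 and -0.10 in high calcium. Both arrays of each B2m pair had the same sign, and its high calcium repeats had the widest spread of the group at that level (SD 0.669), around a fitted ratio of 0.38 ± 0.24 (adjusted p = 0.643). Psmb10, an immunoproteasome subunit, had 0.35 and -0.28 in low calcium and 0.01, 0.05 and 0.05 in high calcium. Psmb8 had a value in 1 pair, -0.03. Of the group 0 of 2 tested in low calcium and 0 of 4 tested in high calcium were called.

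**Figure D2:**
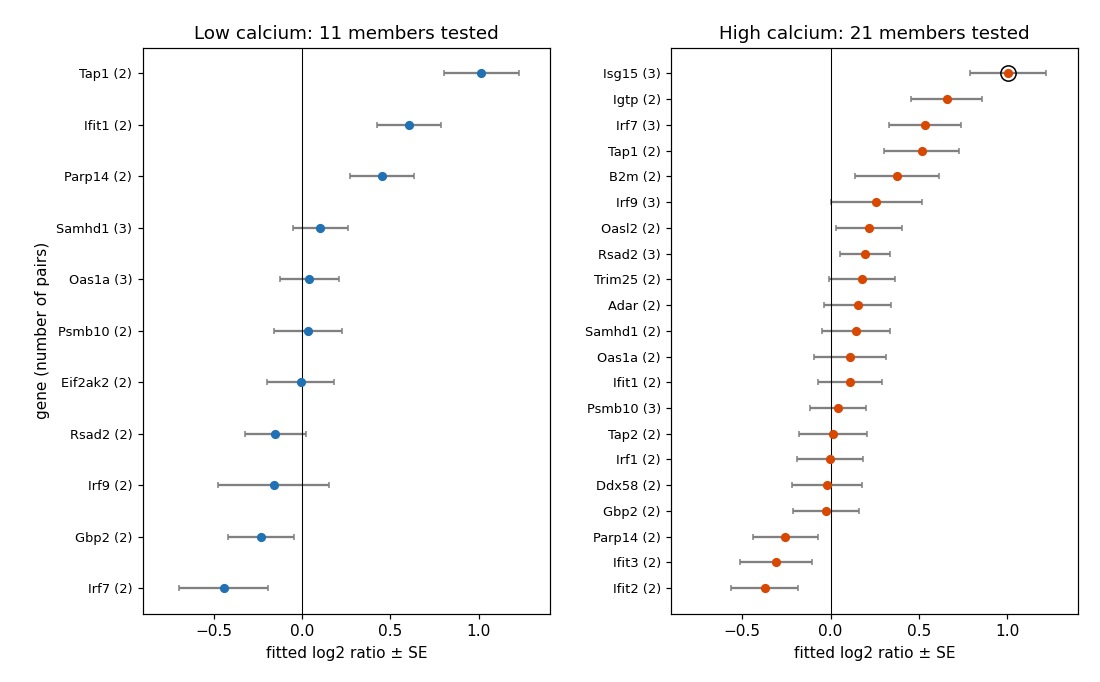
Fitted log2 ratio with its SE (x axis) of each tested gene in low calcium (left, 11 genes) and high calcium (right, 21 genes), with the number of pairs in brackets; a black ring marks an adjusted p under 0.05. Isg15 in high calcium is the one ringed gene, and Tap1 in low calcium has a ratio of the same size on 2 pairs.

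The question of whether deltaNp63alpha acts differently on these genes at the 2 calcium levels could be tested for 10 genes. None was called (limma, unadjusted p under 0.05 in 2), where 0% of the 4209 rows tested were called and 107 had an unadjusted p under 0.05. Irf7 had the largest difference, 0.98 ± 0.33 higher in high calcium (unadjusted p = 0.0106, adjusted p = 0.9997), and Parp14 the largest the other way, -0.71 ± 0.26 (unadjusted p = 0.0183, adjusted p = 0.9997). With the deposited signs kept the difference was 0.33 for Irf7 and 0.43 for Parp14. Tap1 and Ifit1 had lower ratios in high calcium, by -0.50 ± 0.30 and -0.50 ± 0.26. Isg15 and Igtp could not be tested, since 1 low calcium pair measured them. The levels share no samples, but the well-filled repeats are not evenly divided between them.

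The dye swap divides the genes by the sign of the deposited value. Where it flips between the arrays of a pair, both arrays point to the same RNA if reversed arrays are turned, and where it does not flip, they do so if the deposited signs are kept. This held in 38 of the 90 pair values of the 26 genes (42.2%), against 36.6% over all rows. It held in every pair of Tap1 (4 pairs), Irf9 (5), Oasl2 (3) and B2m (3), and in 3 of 4 pairs of Isg15. It held in no pair of Ifit2, Irf1, Tap2 (3 pairs each), Gbp2, Parp14 (4 each), Psmb10 (5), Cxcl10 (2) and Psmb8 (1). For these 8 genes the turned arrays oppose each other, and on the reading with kept signs they are the genes whose arrays point the same way. Which of the readings holds is not settled by these counts.

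**Figure D3:**
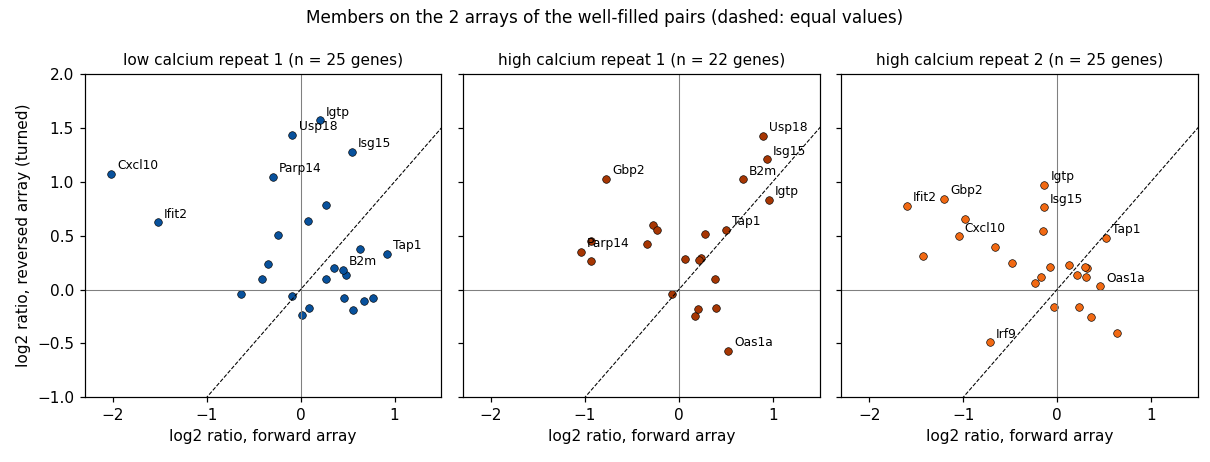
Forward log2 ratio (x axis) against turned reversed log2 ratio (y axis) of the measured genes in the 3 well-filled pairs, with 8 genes named per panel and equal values on the dashed line. Tap1 lies close to that line in both high calcium panels, Isg15 and Igtp lie in the upper right in 2 of 3 panels, and Ifit2, Cxcl10 and Gbp2 lie mostly in the upper left, where the deposited sign did not flip.

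Pair by pair, the genes lay above 0 in 17 of 25 in low calcium repeat 1, 16 of 22 in high calcium repeat 1 and 14 of 25 in high calcium repeat 2. In the sparse repeats it was 4 of 8 and 2 of 5 in low calcium repeats 2 and 3 and 5 of 5 in high calcium repeat 3. The medians in the same order were 0.28, 0.16 and 0.05, then -0.10, -0.23 and 0.98. The medians over all rows lay between -0.06 and 0.06. Of the 22 genes with 3 or more pairs, 7 lay above 0 in every pair (Isg15, Tap1, Igtp, Ifit1, Oasl2, Trim25 and Adar) and 1 below (Ifit2), where 14.7% and 16% of the 7506 rows with as many pairs did so. The 5 genes of high calcium repeat 3 were Isg15, Irf7, Irf9, Rsad2 and Psmb10, and Isg15, Irf7 and Irf9 had their highest pair values there. Over genes, the members' pair values of low calcium repeat 1 and high calcium repeat 1 had a Pearson's r of 0.68 (22 genes), against 0.61 over all 6880 rows. Low calcium repeat 1 against high calcium repeat 2 gave 0.39 (24 genes), against 0.64 over 7598 rows. These are descriptions over genes, on arrays where a part of each value kept its sign when the dyes were swapped. Genes are not independent replicates.

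**Figure D4:**
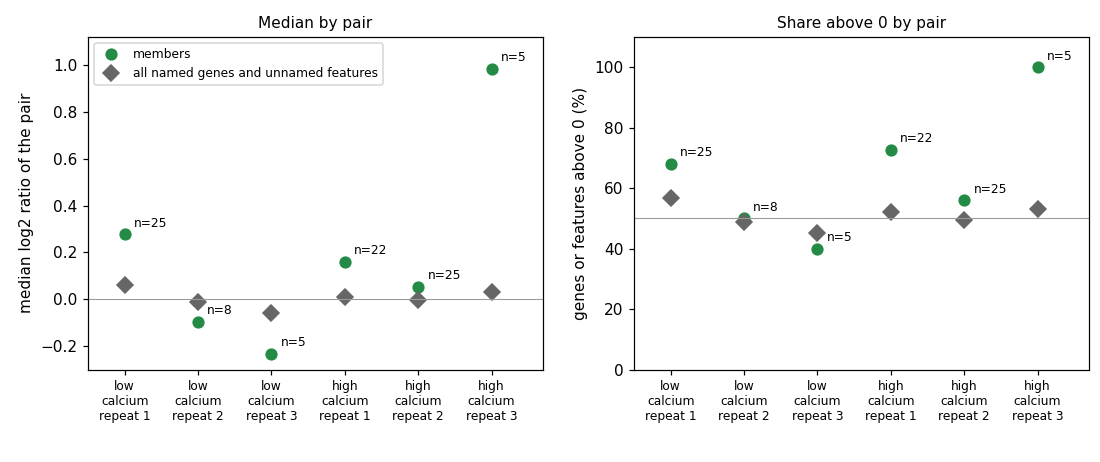
Median log2 ratio (left) and share above 0 in percent (right) of the measured genes (green, with their number) and of all rows (grey) in each dye-swap pair. The members' median lies above that of all rows in low calcium repeat 1 and in all 3 high calcium repeats, most in high calcium repeat 3 (0.98, 5 genes), and below it in low calcium repeats 2 and 3.

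The values were also read by the response element. In high calcium the 8 tested genes with the element had a median ratio of 0.15 and 6 lay above 0, and the 11 tested without it had a median of 0.15 and 8 above 0. In low calcium the 4 with it had a median of -0.06 and the 6 without it 0.01. With and without the element the ranges overlapped at both levels.

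On the reading with the deposited signs kept, the members lay lower. Of the 21 genes in high calcium 6 lay above 0, with a median of -0.13 against 0.03 over all rows, and of the 11 in low calcium 4 did, with a median of -0.20 against 0.02. On that reading Oas1a (0.65, adjusted p = 0.0388) and Parp14 (-1.18, adjusted p = 0.0396) were called in low calcium among 763 of 4646 rows, and 0 genes or features were called in high calcium, where 1270 of 7263 had an unadjusted p under 0.05 (limma). The direction of the group as a whole thus depends on how the deposited ratio was formed.

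Other genes of the pathway, on a list of 69 of which 37 were measured, gave no call: 0 of 21 tested in low calcium and 0 of 31 in high calcium (limma, unadjusted p under 0.05 in 1 and 3), with medians of 0.14 and 0.10. In low calcium the smallest p-values belonged to Tor3a (-0.35, adjusted p = 0.477), Cxcl9, a T cell chemokine (0.42, adjusted p = 0.562), and Ikbke, a kinase upstream of Irf3 and Irf7 (0.43, adjusted p = 0.564). In high calcium they belonged to Lgals3bp (0.83 ± 0.24, adjusted p = 0.144), Ifngr1, a subunit of the interferon gamma receptor (-0.49, adjusted p = 0.325), and Ifnar1, a subunit of the type I receptor (0.45, adjusted p = 0.398). Lgals3bp had pair values of 0.84, 0.28 and 1.37 in high calcium and 0.22, 0.82 and -0.66 in low calcium. Like those of Isg15, its high calcium values were highest in repeat 3 and lowest in repeat 2.

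Other genes of antigen processing, on a list of 35 of which 21 were measured, gave 1 call of 8 tested in low calcium and 0 of 14 in high calcium. Of all rows tested, 0.409% were called in low and 1.39% in high calcium, and the low calcium share of the list rests on 1 gene. Ctsl, the lysosomal protease cathepsin L, was lower with deltaNp63alpha as labelled in low calcium, with pair values of -0.89, -1.22 and -1.20 and a fitted ratio of -1.11 ± 0.17 (SE, n = 3; adjusted p = 0.0198). In high calcium its pair values were -0.33 and -1.10 and the ratio -0.72 ± 0.21 (adjusted p = 0.146). Both arrays of each of these 5 pairs lay below 0. Hspa5, the endoplasmic reticulum chaperone BiP, had -0.78 and -1 in high calcium and -1.18 in its low calcium pair, and its high calcium ratio was -0.89 ± 0.19 (adjusted p = 0.0509). In low calcium Psme3 (-0.38, adjusted p = 0.381) and Calr (-0.18, adjusted p = 0.804), and in high calcium Ctss (-0.41, adjusted p = 0.268), were next by p-value. Medians of the list were -0.14 and -0.06.

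Leukocytes carry many of these genes at high levels, so markers of other cells were read beside them. Of the Langerhans cell and leukocyte markers 12 of 15 were measured, and 0 of 8 tested in low calcium and 0 of 10 in high calcium were called, with ratios from -0.18 to 0.37 and from -0.37 to 0.21 and no unadjusted p under 0.05 (limma). Of the fibroblast, endothelial and melanocyte markers 0 of 9 tested in low calcium and 0 of 10 in high calcium were called, and 1 had an unadjusted p under 0.05, an endothelial one in low calcium. The part of these cells in the results was not tested. Of the keratinocyte markers Krt10, a keratin of differentiating cells, was lower in high calcium (-1.57 ± 0.20 SE, n = 2, adjusted p = 0.0082), and the other 5 tested there were not called, 3 of them above 0 (Itga6 0.06, Krt5 0.11 and Sfn 0.21) and Cdh1 (-0.70, adjusted p = 0.0667) and Trp63 below. In low calcium 0 of 4 tested were called, all below 0 (-0.27 to -0.16; limma, 0 with an unadjusted p under 0.05). A ratio array gives no level of a marker, and fewer cells of a type and less RNA per cell cannot be told apart.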

How the data were processed

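The deposited values, per the file headers 1 column for each of 12 two-colour arrays, are taken as log2 ratios from their range (-7.88 to 4.60). The sources used here state neither log base nor numerator dye, and neither background correction, normalization nor how spots were filtered. Array medians lay between -0.0005 and 0.0005. By the platform annotation 7461 probes had 1 distinct symbol, 477 several and 1620 none. Of those with 1 symbol, 7372 were named by the RefSeq symbol of their gene ID (GRCm38.p6), whether or not it differed. Probes of a gene were averaged, giving 8875 rows. Each array was centred on its median, and a pair lacking a value on 1 array was left out. One fit held the 3 pairs of each calcium level (lmFit and eBayes of limma 3.58.1 under R 4.3.3, 9.55 prior degrees of freedom), and every adjusted p is from limma. Each SE is the moderated one of that fit, which borrows spread from other rows. The procedure was tested on simulated pair values with independent noise, an equal spread in every pair of a row and no dye component. That test does not cover the wider spread of some arrays or the part of each value that kept its sign when the dyes were swapped. The genes and lists were chosen with earlier results of these data known. All measured list genes are named, with the called genes and the 3 smallest p-values per level of the other interferon and antigen presentation lists. Of the cell marker lists, the keratinocyte genes tested in high calcium are named and the others are given as counts. Array number and missing spots limit the precision. Alternatives covered the sign, unit, scaling, centring, probe averaging, filter, variance model, blocks and each repeat left out.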

Additional observations from a re-analysis of the deposited data

Results flagged for a closer look

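Of the 10 genes with 2 or more pairs at each level, 3 had every low calcium pair on one side of 0 and every high calcium pair on the other, as did 2.76% of the 4209 rows with as many pairs. Ifit3 and Irgm1 showed the same split with 1 low calcium pair each, and the difference was not tested for them. Counting genes with 1 or more pairs at each level, 5 of 25 showed it, against 9.41% of 8168 rows. The fitted difference, high minus low calcium, was 0.98 for Irf7, 0.35 for Rsad2 and -0.71 for Parp14, and none passed the limma test of the difference (adjusted p = 0.9997 for each). For Irf7 the forward and turned reversed arrays opposed each other in both low calcium pairs (0.09 and -0.17, -2.35 and 0.65). They also did so in high calcium repeat 3 (-0.02 and 2.28). With the deposited signs kept Irf7 lay below 0 at both levels, at -0.69 in low and -0.36 in high calcium. For Rsad2 the pattern is that of the mean over probes, since the probe with more pairs gave 0.02 in low calcium. For Parp14 the 2 arrays of each pair had opposite signs once turned, and with the deposited signs kept its difference was 0.43.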

How the results depend on the processing

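The low calcium count of 19 called genes and features became 0 with arrays on the same spread, with 1-array pairs kept or with a trended and robust variance. It became 763 with the deposited signs kept, 47 with the experiment number range as a block, 33 on forward and 330 on reversed arrays alone, and 168 with both calcium levels as 1 group, a setting added after seeing the data. The high calcium count of 101 became 57 with arrays as replicates, 14 on the same spread (1 higher and 13 lower, against 40 and 61), 33 in rows with all 3 pairs, 1 on reversed arrays alone, 168 as 1 group, and 0 with the signs kept, on forward arrays alone, with 1-array pairs kept or with the trended variance. Leaving out 1 repeat gave 6 (without low calcium repeat 1) to 51 in low calcium, 33 (without high calcium repeat 1) to 151 in high calcium, and 0 to 1 for the difference. With the experiment number range as a block 1 of 4209 rows, no member, was called for the difference.

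Of the interferon and antigen presentation genes, the low calcium count of 0 became 2 with the signs kept (Oas1a, and Parp14 at -1.18), 1 with the number range as a block (Tap1), 1 on reversed arrays alone (Parp14), and 0 to 1 with 1 repeat left out (Tap1). The high calcium count of 1 (Isg15) became 0 in the 8 alternatives counted in the report, where Isg15 was -0.13 with the signs kept, and was 0 to 1 with 1 repeat left out.

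Deviations of same-numbered repeats of the 2 levels had r of -0.03, -0.11 and 0.20 over 1381 complete rows. Differently numbered repeats ranged from -0.29 to 0.27, so same-numbered repeats share a number and no pairing is shown. With the repeat number as a block (replicate block), the calls were 61 in low calcium, 199 in high calcium and 2 for the difference, with 1 member in low calcium (Tap1) and 1 in high calcium (Isg15). In high calcium signs of members, Isg15 among them, changed most with the deposited signs kept (11 of 21, and 4 of 11 in low calcium). In low calcium they changed most on reversed arrays alone (7 of 11). On those arrays 9 of 21 changed in high calcium, Isg15 not among them. Causes were not tested. Missing spots limit most members to 1 or 2 pairs per level.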
